A study of Mus musculus with 6 samples.

Results

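Granule-gene neutrophils are lung neutrophils that still carry messenger RNA for proteins of the secondary granules. They were chosen by measured counts in single-cell RNA sequencing of live CD45+ cells, the leukocytes, sorted from mouse lung. A cell was a member with at least 2 counts of Camp, at least 2 of Ngp, at least 5 of S100a8 and at least 1 of Ltf or Cd177. It also had at least 500 expressed genes, no count of Cd3e, Ncr1 or Siglech, and fewer than 2 counts each of Cd79a and C1qa, which mark other leukocytes. This rule found 57 cells among 24474 kept cells, 29 of 12693 from mice given a PD-1 agonist and 28 of 11781 from mice given an isotype control antibody.

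All mice were of a humanized PD-1 strain, 6 to 8 weeks old, and PD-1 is a receptor that dampens T cell activation. Per the labels the groups differed in treatment, a PD-1 agonist against an isotype control, and each treatment was a library of its own; the study's title places them in neutrophilic asthma. The labels used here describe neither an airway challenge nor a dose. Per the labels, 3 samples of each group were mixed by cell hashing, which tags the cells of each mouse with an antibody-borne barcode. The hashtags were not used here, and a cell's mouse of origin is therefore unknown.

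Neutrophils fill their granules in sequence while they mature in the bone marrow. Primary granule genes such as Mpo and Elane are transcribed in early precursors, secondary granule genes such as Camp, Ltf and Ngp in myelocytes and metamyelocytes, and tertiary granule genes such as Mmp9 last. Transcription of the secondary granule genes depends on the factor C/EBP epsilon and declines as the nucleus segments, while receptors of circulating neutrophils such as Cxcr2 appear. Mature neutrophils then leave the marrow, and many are held in the vessels of the lung.

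The tables of a treatment were not independent samples. The 6 tables, 3 per treatment, held 6393 to 6749 cell records. Tables of the same treatment had 2373 to 2736 cell barcodes in common, 35.9% to 42.5% of the smaller table, while tables of different treatments had 3 to 13 in common. Each barcode was therefore used once per treatment, from the record with the highest total, and each treatment counted as 1 sample. No difference between treatments has a replicate check, no p-value was computed, and an effect of treatment cannot be told apart from an effect of the library. Among the members, 10 of 29 agonist barcodes and 12 of 28 isotype barcodes stood in more than 1 table, and no member barcode was found in the other treatment. All records of these barcodes counted, 39 of 39 agonist and 41 of 42 isotype records passed the rule on their own.

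Members held more counts per cell than the other neutrophils compared here. Their median total was 5044 counts in agonist cells (range 1391 to 13472) and 4904 in isotype cells (1917 to 22498). Retnlg-high neutrophils, the main mature class used for comparison, had medians of 1617 and 1750 counts. Summed over cells, the members gave 170377 agonist counts and 170625 isotype counts, and intervals on such sums reflect only the error of counting. Levels are in CPM, a gene's counts per 1000000 summed counts of a class.

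Of the granule genes that chose the members, Camp, Ngp and Ltf lie on the same chromosome, with gaps of 570 and 596 kb between them. Camp (chromosome 9, 109847379 to 109849617, minus strand), Ngp (110419747 to 110423012, plus strand) and Ltf (111019271 to 111042767, plus strand) stand within 1195 kb of each other in GRCm38, per the GENCODE M21 annotation. Camp encodes the cathelicidin precursor, Ngp a neutrophilic granule protein of the same family, and Ltf the iron-binding lactoferrin. The collagenase gene Mmp8 (7558456 to 7568485, plus strand) is on the same chromosome, Lcn2, a siderophore-binding lipocalin, is on chromosome 2, and Cd177, a surface glycoprotein of neutrophils, is on chromosome 7. Upstream sequence of 3 of them is shown because these genes were high in the same cells and because the factor named above binds a known motif.
The runs below are from RefSeq (GRCm38.p6), plus strand, read 5′ to 3′, and leave out any annotated exon. Capitals mark matches to the C/EBP-type motif TTGCNNAA on either strand (TTNNGCAA on the other).
Ngp, chr9:110419558-110419746: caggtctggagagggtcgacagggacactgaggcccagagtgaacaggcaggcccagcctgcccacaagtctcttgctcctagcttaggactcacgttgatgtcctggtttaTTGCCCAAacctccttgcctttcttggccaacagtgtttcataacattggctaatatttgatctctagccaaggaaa
Ltf, chr9:111019042-111019270: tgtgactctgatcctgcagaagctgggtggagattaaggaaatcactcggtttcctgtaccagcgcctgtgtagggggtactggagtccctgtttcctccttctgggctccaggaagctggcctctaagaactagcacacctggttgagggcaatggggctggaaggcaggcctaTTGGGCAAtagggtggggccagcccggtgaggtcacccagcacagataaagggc
Mmp8, chr9:7558179-7558428: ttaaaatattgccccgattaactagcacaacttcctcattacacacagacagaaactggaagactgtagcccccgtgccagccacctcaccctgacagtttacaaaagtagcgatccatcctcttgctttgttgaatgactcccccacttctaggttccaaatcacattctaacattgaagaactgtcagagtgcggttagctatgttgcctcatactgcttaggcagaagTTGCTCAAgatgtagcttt

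The matches began 138 bases before the RefSeq start of Ngp, 75 bases before that of Ltf and 19 bases before that of Mmp8. In the 250 bases before the start, Ngp had 2 matches, Ltf, Mmp8 and Lcn2 had 1 each, and Camp and Cd177 had 0. Of the 18 secondary granule genes listed, 16 had a RefSeq promoter and 7 of these a match, while 9.57% of all 32841 promoters of the same length had one. The motif was chosen after these sequences had been seen, and a match is a string of letters, not a measured binding site.

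The rule itself required Camp, Ngp, S100a8 and either Ltf or Cd177, so their presence is no check of the label. Of the granule markers that the rule did not use, Lcn2 was present in all 29 agonist and 28 isotype members, and Mmp8 in 26 of each. Primary granule markers were mixed. Mpo, Elane and Ctsg, which encode primary granule enzymes, had 0 counts in members of both treatments, which allows levels of up to 17.6 CPM each. Gfi1, a transcription factor of granulocyte precursors, also had 0 counts, and Prtn3, another primary granule protease, had 0 agonist and 3 isotype counts. Serpinb1a, a protease inhibitor on the same list, had 323 CPM in agonist members, against 11.7 CPM in Retnlg-high neutrophils, and 193 CPM in isotype members, against 5.48 CPM. Lyz2, the lysozyme of myeloid cells, had 984 agonist and 887 isotype counts. Of 4 primary granule genes tested against Retnlg-high neutrophils, 2 were higher and 2 lower past 1.5-fold in agonist members, and 1 was higher and 1 lower in isotype members. Over all genes, 8.44% were higher and 42.6% lower in agonist, and 6.72% were higher and 42.1% lower in isotype members.

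The word immature was borne out only in part. Cebpe, the gene of C/EBP epsilon, had 18 counts in 6 of 29 agonist members and 26 counts in 11 of 28 isotype members. After thinning each cell at random to 1000 counts, 1 of 29 agonist members (3.45%) and 3 of 28 isotype members (10.7%) had a count. Without the first agonist table, 0 of 21 agonist members did (0%). Each set of cells was thinned by 1 new random draw, so such small numbers move with the draw. Without the isotype members that had over 50 counts of Cd74, 6 of 26 isotype members had a count. Its level was 106 CPM in agonist members, against 12.5 CPM in Retnlg-high and 8.49 CPM in activated neutrophils. In isotype members it was 152 CPM, against 8.23 CPM in Retnlg-high and 12.5 CPM in activated neutrophils. Retnlg, a resistin-like secreted protein typical of mature mouse neutrophils, had a count in 93.1% of agonist members (77.2% to 99.2%) and 96.4% of isotype members (81.7% to 99.9%). Of 18 mature-neutrophil genes tested against Retnlg-high neutrophils, 12 were lower past 1.5-fold in agonist and 14 in isotype members, and 3 and 2 were higher. Over all genes, 42.6% and 42.1% were lower and 8.44% and 6.72% higher. Mpo, Elane and Ctsg had no counts, but primary granule genes are transcribed in earlier precursors than secondary granule genes. Because Retnlg was abundant although most mature-neutrophil genes tested were lower, the cells are called here by their granule genes.

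Granule-gene neutrophils were rare in both libraries. They were 0.228% of kept agonist cells (exact 95% binomial interval 0.153% to 0.328%) and 0.238% of kept isotype cells (0.158% to 0.343%). Of all cells with at least 5 counts of S100a8 and the same exclusions, they were 1.19% in agonist (0.799% to 1.71%) and 1.45% in isotype (0.965% to 2.09%). The intervals overlapped on both scales. Background from free RNA was low for Camp and Ngp. It was read in cells with Cd3e, which marks T cells that should lack granule genes, and with fewer than 2 counts of S100a8. Among these, 0.165% of agonist cells and 0.358% of isotype cells had a count of Camp, and 0.275% and 0.448% a count of Ngp. The median total of these T cells was 3391 counts in agonist and 3950 in isotype. The doublet caller Scrublet marked 2 of the 29 agonist and 0 of the 28 isotype members, beside 9.14% and 7.81% of all kept agonist and isotype cells.

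Some cells missed the rule by 1 criterion. Camp alone was missed by 7 agonist and 15 isotype cells, whose median was 0 counts of Camp and 4 counts of Ngp in agonist and 8 in isotype. The lineage exclusions alone removed 9 agonist and 6 isotype cells, which had median totals of 10139 and 11380 counts and medians of 52 and 11.5 counts of Camp. Ngp alone, and Ltf or Cd177 alone, were each missed by 0 agonist and 2 isotype cells. Just inside the rule, the lowest member of each treatment had 2 counts of Camp.

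The genes of the rule varied widely from cell to cell within each treatment, and these values describe how the cells were chosen. Camp ran from 2 to 397 counts per agonist cell (median 42) and from 2 to 249 per isotype cell (median 31.5). Ltf ran from 0 to 145 counts (median 23) in agonist and from 0 to 124 (median 25) in isotype cells. Ngp ran from 3 to 531 counts (median 91) in agonist and from 12 to 314 (median 102.5) in isotype cells. The ranges of the treatments overlapped for each of these genes. S100a8, a calcium-binding alarmin subunit, ran from 155 to 1927 counts in agonist and from 65 to 1369 in isotype cells. With its partner S100a9 it made up 25.2% of all counts of agonist members and 24.1% of isotype members.

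**Figure D1:**
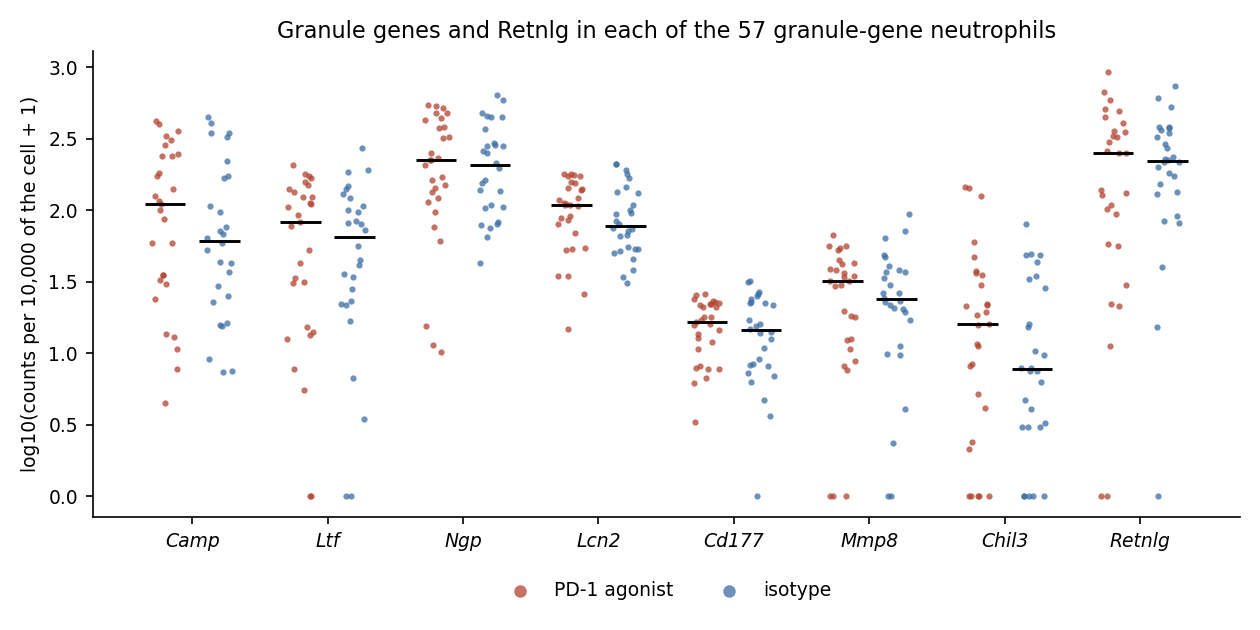
Counts scaled to the cell's total (scale as on the axis), on a log10 scale after adding 1, for 8 genes in each of the 29 agonist (left, red) and 28 isotype (right, blue) granule-gene neutrophils; black bars are medians over cells. The treatments overlap for all 8 genes, and cells at the bottom line have 0 counts.

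Among the members, cells with more granule RNA had less Retnlg. Camp, Ltf and Ngp together took 0.127% to 11.03% of a cell's counts in agonist members (median 4.04%) and 0.504% to 12.5% in isotype members (median 3.02%). Against this granule share, the Retnlg level in the cell's other counts had a Spearman correlation of -0.51 over 29 agonist members and -0.55 over 28 isotype members. Chil3, a chitinase-like secreted protein, had correlations of 0.80 and 0.70, but 44.8% of its 31-base words also occur in another gene, so its counts are uncertain. The granule share went little with depth, with correlations of 0.20 and 0.09 against the cell's total. Cells within a treatment share a library, so these correlations are descriptions.

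**Figure D2:**
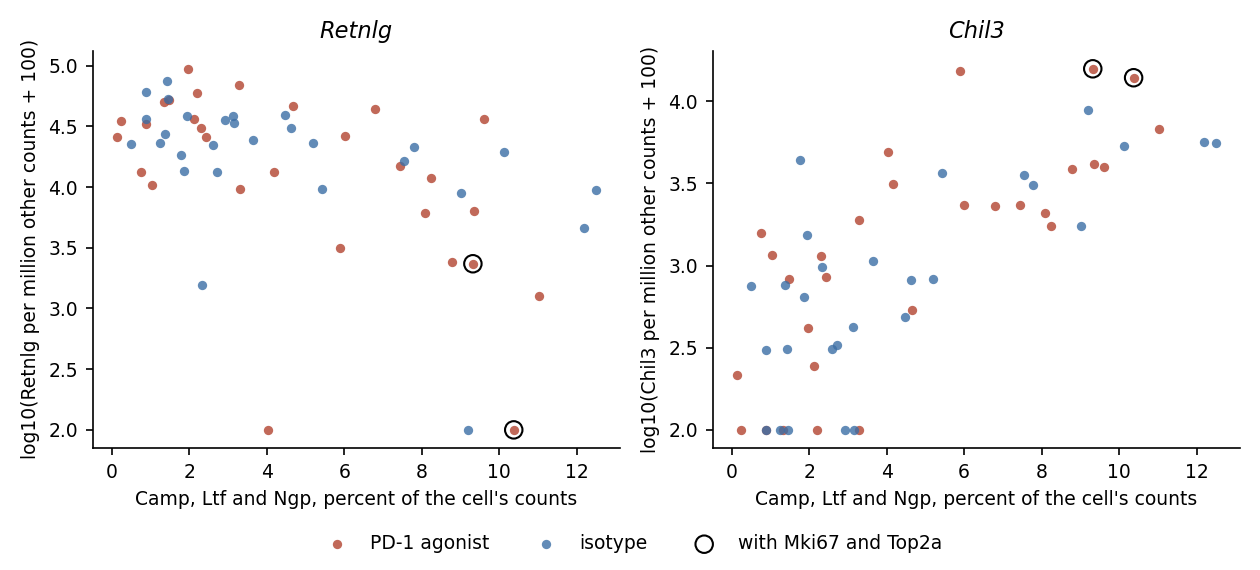
Each point is a granule-gene neutrophil; the x axis is the percent of its counts from Camp, Ltf and Ngp, and the y axes are Retnlg and Chil3 as CPM of its other counts, on a log10 scale after adding 100. Retnlg is lower and Chil3 higher at a larger granule share in both treatments, with correlations of -0.51 and 0.80 in agonist and -0.55 and 0.70 in isotype members.

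The same ordering was seen for other genes that the rule did not use. Among 164 genes with at least 200 counts, 120 had correlations of the same sign in both treatments. Of the 164, 13 were at 0.4 or above in both and 8 at -0.4 or below in both. These counts take in the genes of the rule. The 13 include Camp, Ltf and Ngp, which make up the share itself, and S100a8. Cybb, the catalytic subunit of the NADPH oxidase, went with the granule share at 0.72 in agonist and 0.75 in isotype members. Anxa1, an annexin that restrains neutrophil recruitment, did so at 0.71 and 0.77, and Lcn2 at 0.69 and 0.75. Ifitm6, an interferon-induced membrane protein relative, had 0.49 and 0.52, and Adpgk, the ADP-dependent glucokinase, 0.63 and 0.47. Pim1, a kinase gene induced by cytokines, went against the granule share at -0.58 and -0.63. Dusp1, an immediate early phosphatase, had -0.46 and -0.56, Cebpb -0.49 and -0.43, and the inflammatory cytokine gene Il1b -0.40 and -0.57. Mmp8 did not order the cells in this way, at -0.13 and -0.24.

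A pair of agonist members held all Top2a counts and nearly all Mki67 counts. Mki67, a proliferation antigen, had 8 and 14 counts in these cells, and Top2a, a DNA topoisomerase of dividing cells, had 8 and 9. Over the G2/M gene list these cells held 109 and 126 counts, against at most 11 in any other agonist member and 9 in any isotype member. They had 389 and 397 counts of Camp, the most of all members, with 154 and 124 counts of Chil3. They had 0 counts of Mmp8, 22 and 0 of Retnlg, and 7 and 3 of Cebpe. Among isotype members, 1 had a single count of Mki67 and none had Top2a.

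At the other end of the order stood cells with little granule RNA and much Retnlg. The 2 agonist members with the lowest granule share had 223 and 72 counts of Retnlg but 3 and 2 of Camp and 0 of Ltf. In isotype, the lowest had 274 counts of Retnlg with 8 of Camp and 3 of Ltf. This isotype cell also had 56 counts of Cd74. The agonist cell with 223 counts of Retnlg had 62 of Cd74, and Scrublet marked it as a doublet. Retnlg was at 0 in 2 agonist members and 1 isotype member, while Mmp8 was at 0 in 3 agonist and 2 isotype members. Both agonist members without Retnlg also lacked Mmp8.

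Granule-gene neutrophils were set against Retnlg-high neutrophils, 1717 agonist and 1157 isotype cells. These had at least 5 counts of S100a8 and 2 of Retnlg, fewer than 2 of Camp and of Ngp, none of Ltf, the same exclusions and no place in the activated class. They were also set against activated neutrophils, 140 agonist and 153 isotype cells with counts of Cxcl3 and of Il1a or Csf1 and as little granule RNA. The rule fixed Camp, Ltf, Ngp and Cd177, and it favours every gene that varies with them, so these comparisons carry no test and only their sizes are described. A gene was counted as higher or lower past 1.5-fold. Against Retnlg-high neutrophils, 8.44% of 4432 genes were higher and 42.6% lower in agonist members, and 6.72% of 3869 were higher and 42.1% lower in isotype members. The median over all genes was -0.46 (log2) in agonist and -0.44 in isotype, and S100a8 and S100a9 took 9.15% and 7.78% of the counts of Retnlg-high neutrophils. TMM scaling would raise every log2 ratio against them by 0.13 in agonist and 0.12 in isotype.

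Other secondary granule genes were high together with those of the rule. Without Camp, Ltf, Ngp and Cd177, 11 listed genes were tested, of which 9 were higher past 1.5-fold in agonist members and 8 in isotype members, with medians of 2.33 and 1.51. Lcn2 had 10101 CPM in agonist members, against 857 CPM in Retnlg-high neutrophils. In isotype members it had 8404 CPM, against 777 CPM, log2 ratios of 3.56 and 3.43. Mmp8 had log2 ratios of 2.65 and 2.87, Wfdc21, a small secreted inhibitor-like protein, 2.33 and 2.82, and Ifitm6 3.54 and 3.68. Anxa1 had 2.59 and 2.23. Hp, the haemoglobin-binding haptoglobin, and Lrg1, a leucine-rich glycoprotein, were near equal in the classes, at 0.07 and 0.19 and at -0.23 and -0.06. Olfm4, which in mouse marks a subset of neutrophils, had 34 counts in 2 agonist members and 49 counts in 1 isotype member, so the whole isotype count was in 1 cell.

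Genes outside the granule list marked the members as well. Adpgk had the largest ratio among the genes chosen for naming, 904 CPM in agonist members against 18.1 CPM in Retnlg-high neutrophils, a log2 ratio of 5.64. In isotype it had 674 CPM in members against 16.1 CPM, a log2 ratio of 5.39. Ly6g, the surface antigen by which mouse neutrophils are sorted, had 3.43 and 3.22, and the nuclear envelope gene Syne1 3.03 and 3.04. Ckap4, an endoplasmic reticulum membrane protein, had 2.50 and 2.55, and Aldh2, a mitochondrial aldehyde dehydrogenase, 2.57 and 2.32. Tkt, the transketolase of the pentose phosphate pathway, had 1.73 and 1.87. Of the oxidase genes, Cybb stood out at 2.04 and 1.63.

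Tertiary granule and other granule genes were more mixed. Mmp9, the gelatinase of tertiary granules, had log2 ratios over Retnlg-high neutrophils of 0.70 in agonist and 0.66 in isotype. Mmp25, a membrane-anchored metalloproteinase, had 1.92 and 2.16, and Itgam, the CD11b integrin chain, 0.87 and 0.69. Slc11a1, a phagosomal metal transporter, was lower at -0.84 and -1.18. The list median was 0.14 over 7 genes in agonist and 0.50 over 6 in isotype.

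Most listed genes of mature neutrophils were lower in members, but Retnlg was higher. Retnlg had 19604 CPM in agonist members, against 10471 CPM in Retnlg-high neutrophils, which were chosen for it. In isotype it had 20120 CPM in members, against 7947 CPM. Receptors that mature neutrophils display were lower in members instead. Csf3r, the receptor for granulocyte colony-stimulating factor, had log2 ratios of -2.01 and -1.79. The chemokine receptor gene Cxcr2 had 364 CPM in agonist members, against 1240 CPM, and 651 CPM in isotype members, against 1153 CPM. Cd101, a surface protein of fully mature mouse neutrophils, had 1 count in members of each treatment, 5.87 CPM in agonist against 82.4 CPM and 5.86 CPM in isotype against 74.4 CPM. Of 18 mature-neutrophil genes tested, 12 were lower past 1.5-fold in agonist and 14 in isotype members, and 3 and 2 were higher. The shares lower over all genes were 42.6% in agonist and 42.1% in isotype members.

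Inflammatory and immediate early genes were lower in members than in either comparison class. Il1b had 1837 CPM in agonist members, against 8833 CPM in Retnlg-high and 8578 CPM in activated neutrophils. In isotype members it had 1477 CPM, against 9366 CPM and 7923 CPM. Of the activation list, 14 of 18 genes tested in agonist and 15 of 17 in isotype were lower past 1.5-fold against Retnlg-high neutrophils, and none was higher. Over all genes, 42.6% were lower in agonist and 42.1% in isotype members. Cxcl2, a chemokine that attracts neutrophils, had -1.19 and -1.38, and Nlrp3, the inflammasome sensor, -2.28 and -1.70. Of the 14 immediate early genes, 13 were lower in agonist and 11 in isotype, with medians of -1.33 and -1.36, below the medians of all genes given above. Junb had -1.61 and -1.47, and Dusp1 -1.73 and -1.87. Cytokine receptor genes were also low, 16 of 18 in agonist and 13 of 18 in isotype, and none was higher past the fold.

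**Figure D3:**
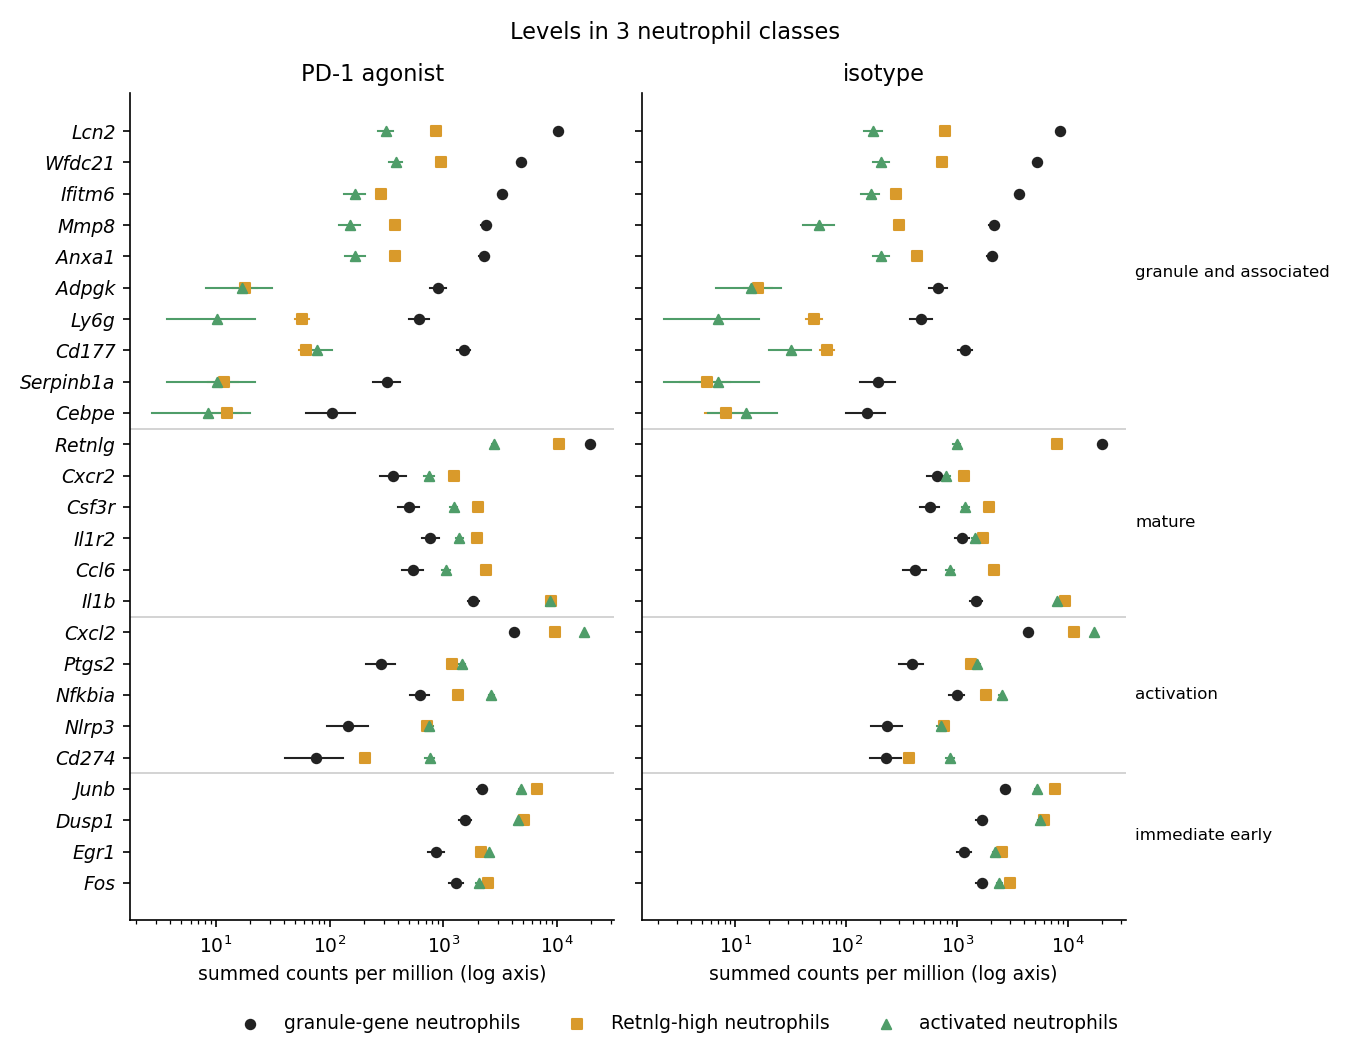
Summed level in CPM, on a log axis, of 25 genes in granule-gene neutrophils (black circles), Retnlg-high neutrophils (orange squares) and activated neutrophils (green triangles), agonist on the left and isotype on the right; lines are exact 95% Poisson intervals. Granule and associated genes are highest in the members, which also lead for Retnlg, and the inflammatory and immediate early genes shown are lowest in them.

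The contrasts in Cxcr2 and Mmp8 were also seen at equal depth. With every cell thinned to 1000 counts, Cxcr2 was detected in 24.1% of agonist members, against 73.1% of Retnlg-high neutrophils. In isotype it was detected in 42.9% of members, against 70.5%. Mmp8 was detected in 82.8% of agonist members, against 29.3%, and in 82.1% of isotype members, against 25.9%. Before thinning, 65.5% of agonist and 85.7% of isotype members had a count of Cxcr2. The thinning left out 112 agonist and 47 isotype Retnlg-high neutrophils with too few counts.

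Against activated neutrophils, 7.65% of 1268 genes were higher and 56.2% lower past 1.5-fold in agonist members, and 7.51% of 1504 were higher and 54.4% lower in isotype members. The activated cells were chosen with little granule RNA. Without the genes of the rule, all 11 secondary granule genes tested were higher, with medians of 2.60 and 3.24, beside medians over all genes of -0.69 and -0.66. All 17 activation genes tested in each treatment were lower, and the list holds Il1a, Csf1 and Cxcl3, which chose the activated cells. Cd274, the PD-1 ligand PD-L1, had 76.3 CPM in agonist members, against 756 CPM in activated neutrophils. In isotype it had 229 CPM in members, against 859 CPM. The type II interferon genes were lower past the fold for 15 of 15 tested in agonist and 19 of 19 in isotype. TMM scaling would raise each ratio against activated neutrophils by 0.34 in agonist and 0.33 in isotype.

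Most markers of other leukocytes were at or near 0 in the members. Cd3e, Cd4 and Cd8b1 of T cells, Cd79a and Ms4a1 of B cells, Ncr1 of natural killer cells, Folr2 and Mrc1 of macrophages, and Marco of alveolar macrophages had 0 counts in both treatments. The rule itself set Cd3e and Ncr1 to 0 and kept Cd79a low. The monocyte list had 254 agonist and 210 isotype counts, of which Ly6c2, also present in neutrophil precursors, gave 183 and 156. Antigen-presentation genes of the dendritic cell list were higher. Cd74, the chaperone of class II molecules, had 137 agonist and 388 isotype counts. Of these, 322 isotype counts were in 1 cell, while 2 agonist cells had 62 and 54 and another isotype cell 56. Of the 10 dendritic cell genes, 5 had counts in agonist and 8 in isotype members, where Clec9a and Xcr1 were at 0. The isotype cell with 322 counts of Cd74 also had 4 counts each of Flt3 and Cd209a, 1 each of Zbtb46 and Fscn1, and 19 of the 23 isotype counts of the plasmacytoid dendritic cell list. The T cell list had 17 agonist counts over 6 of its 10 genes, 15 of them in 1 cell, and 6 isotype counts. The natural killer cell list had 4 agonist and 45 isotype counts, of which 1 isotype cell held 41. Without the cells rich in Cd74, only the share of isotype members with Cebpe and the counts of genes past 1.5-fold are given here. Single-gene ratios without these cells are not given.

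The next comparison asks whether granule-gene neutrophils differed between agonist and isotype. Of 398 genes with at least 100 counts over both, 13 (3.27%) were higher past 1.5-fold in agonist members and 29 (7.29%) were lower, with a median log2 ratio of -0.03. Without the first isotype table the higher genes numbered 31, and without the top cell of each gene the lower ones numbered 9. Of the 13 higher genes, 5 were ribosomal, unnamed, pseudogene or mitochondrial entries, and 10 of the 29 lower ones were named as ribosomal proteins and 4 as class II antigen-presentation genes. The median ribosomal percent of members was 0.969% in agonist and 1.38% in isotype.

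The 6 granule markers were all higher in agonist members, by less than 1.5-fold. Among them, Camp, Ltf, Ngp and Cd177 were used to choose the cells in both treatments. Camp had 15565 CPM in agonist members (exact Poisson interval 14979 to 16169) and 11604 CPM in isotype members (11099 to 12127), a log2 ratio of 0.44 (0.36 to 0.53). Without the 2 dividing agonist cells this ratio was 0.15. The same 2 cells held 477 and 531 of the 4524 agonist counts of Ngp, and 145 and 112 of the 1485 of Ltf. Ltf had 8716 CPM in agonist and 6804 CPM in isotype members, a log2 ratio of 0.38 (0.26 to 0.49), and Ngp 26553 and 22623 CPM, 0.25 (0.19 to 0.31). Lcn2 had 0.28 (0.18 to 0.39), Cd177 0.38 (0.11 to 0.66) and Mmp8 0.15 (-0.06 to 0.36). Without the second agonist table the ratio of Ngp was -0.17, and without the third isotype table that of Mmp8 was -0.02. Of the 15 secondary granule genes tested, 11 were above 0 and 1, Chil3, was past the fold, with a list median of 0.17. Over all 398 genes, 178 were above 0 and 3.27% were higher past the fold.

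Chil3 was the granule-list gene that differed most. It had 3328 CPM in agonist members and 1788 CPM in isotype members, a log2 ratio of 0.92 (0.71 to 1.12). Without the 2 dividing agonist cells the ratio was 0.16. Chil3 was also widely spread as free RNA, with a count in 12.6% of agonist and 15.6% of isotype Cd3e cells, against 82.8% of agonist and 82.1% of isotype members. Retnlg did not differ beyond counting error, with 19604 CPM in agonist and 20120 CPM in isotype members, a log2 ratio of -0.02 (-0.09 to 0.05). S100a8 and S100a9 had ratios of 0.19 and -0.03.

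Homing and surface receptors were among the named genes lower in agonist members. Cxcr2 had 62 agonist counts in 19 of 29 cells and 111 isotype counts in 24 of 28 cells, a log2 ratio of -0.82 (-1.29 to -0.36). Il1r2, the decoy receptor for interleukin 1, had 768.9 CPM in agonist and 1102 CPM in isotype members, -0.50 (-0.83 to -0.17). Of the 11 adhesion and homing genes tested, 2 were lower past the fold, Cxcr2 among them, beside 7.29% of all genes. Of the same 11, 7 were above 0 and 4 below, and the list median was 0.03. Leaving out the first isotype table, which leaves 18 isotype members, gave a Cxcr2 ratio of -0.33, and leaving out the first agonist table gave -1.45. With the lowest-total record of each barcode, Cxcr2 was at -0.47, short of 1.5-fold.

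Other named genes lower in agonist members were secreted or intracellular proteins. Thbs1, the matrix glycoprotein thrombospondin, had 154 counts in 22 agonist cells and 256 counts in 26 isotype cells, -0.71 (-1.01 to -0.42). Asprv1, an aspartic protease, had 48 and 96 counts in 14 cells of each treatment, -0.98 (-1.51 to -0.46). Without the first isotype table, Thbs1 was at -0.51 and Asprv1 at -0.42. AA467197 had -0.72, and -0.53 without the third agonist table. The transcription factor gene Spi1 had -0.55 (-1.26 without the first agonist table), the immune signalling gene Lst1 -0.51 and Pim1 -0.44. The class I light chain gene B2m, the calcium-binding S100a6 and the actin-binding Tmsb4x had -0.38, -0.32 and -0.26. For Tmsb4x, 19.3% of the isotype counts were in 1 cell, and the ratio without the top cell of each library was -0.05.

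At most 12 genes were named per direction, and those higher in agonist members beside the granule genes and S100a8 are given here. Dhrs7, a short-chain dehydrogenase, had 75 agonist and 49 isotype counts, 0.64 (0.10 to 1.19), and Dstn, an actin-depolymerising factor, 63 and 41, 0.64 (0.05 to 1.24). Adpgk had 0.44 (0.08 to 0.80), the lipopolysaccharide co-receptor gene Cd14 0.44 (0.06 to 0.83) and the nuclear lamin gene Lmnb1 0.41 (0.05 to 0.77). Il1b had 313 counts in 18 agonist cells and 252 counts in 16 isotype cells, 0.33 (0.09 to 0.58). Only Dhrs7 and Dstn of these 6 were past 1.5-fold, and neither call was stable. Dstn was short of it without any of 5 of the 6 tables (0.39 to 0.56), and Dhrs7 without the second isotype table (0.46) and without the second (0.58) or the third (0.57) agonist table. Il1b was at 1.23 without the first isotype table and at -0.18 without the first agonist table, and Lmnb1 at -0.14 without that agonist table.

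The other lists lay on both sides of the median of all genes. Over all 398 genes, 178 were above 0 and 220 below, and 7.29% were lower past the fold. The oxidase list had a median of 0.10 over 6 genes, tertiary granule genes 0.07 over 5, mature-neutrophil genes -0.08 over 15, pattern recognition genes -0.05 over 6 and immature or suppressive myeloid genes -0.04 over 8. Granulopoiesis transcription factors had -0.22 over 4 genes, all below 0, the S100 family -0.17 over 4, glycolysis -0.23 over 4 and type II interferon genes -0.48 over 3, all below 0. Chromatin genes had 0.41 over 3, all above 0. With 2 genes each, the medians were -0.53 for protein folding in the endoplasmic reticulum, -0.11 for cytokine receptors, -0.04 for primary granules and 0.25 for type I interferon. Single genes tested were Hmgb2 for G2/M at 0.70, Cox4i1 for oxidative phosphorylation at 0.39, Hsp90ab1 for heat shock at -0.44 and Mcl1 for survival at 0.09. Hmgb2 is also among the 3 chromatin genes. The 2 dividing agonist cells held 109 and 126 counts over the G2/M list, and the Hmgb2 ratio without them is not given here. Immediate early genes had -0.30 over 10 genes, 8 of them below 0 and none past the fold. All 6 activation genes tested were below 0, with a median of -0.28, and Nfkbia, an inhibitor of NF-kappa-B, was past the fold at -0.64 (-1.01 to -0.28), with 26.4% of its agonist counts in 1 cell. Leaving out each table in turn moved these last medians between -0.48 and 0.06 and between -0.42 and 0.11. No gene of the PD-1 pathway list reached 100 counts. Pdcd1, the mouse PD-1 gene that this strain carries in a human form, had 0 counts in all 57 members. Whether transcripts of the human form were counted under this name was not tested. Cd274 had 13 counts in 6 agonist and 39 counts in 9 isotype members.

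**Figure D4:**
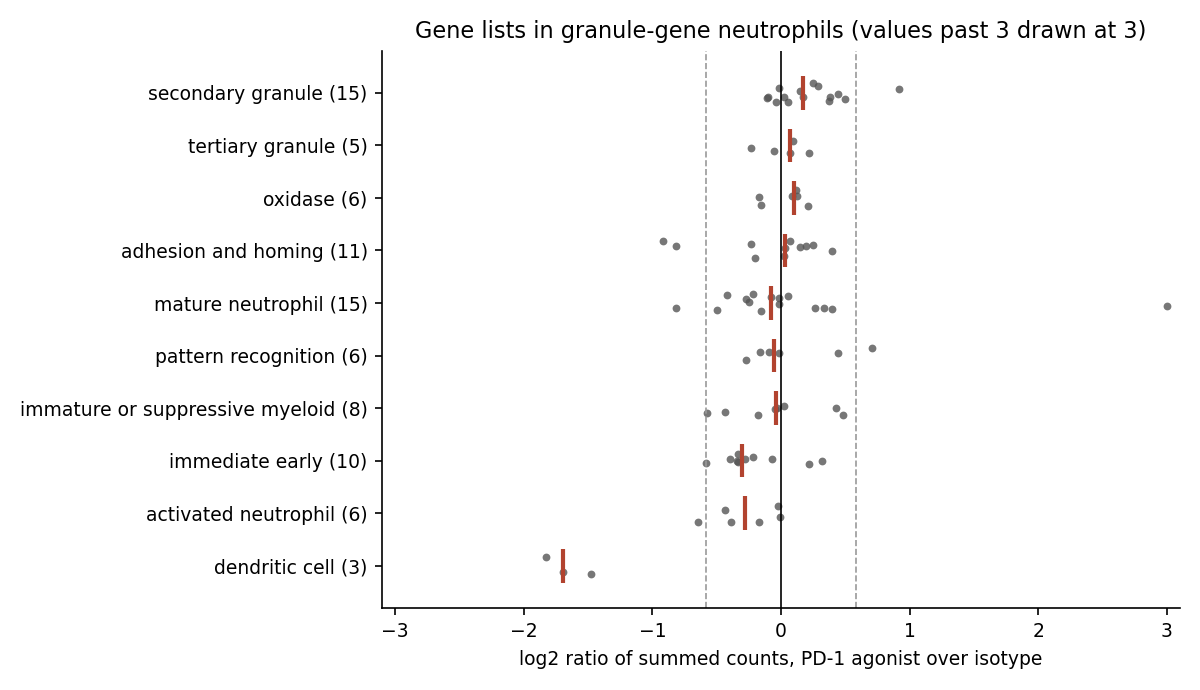
Log2 ratios of agonist over isotype in granule-gene neutrophils; each point is a gene with at least 100 counts, red bars are list medians, dashed lines mark 1.5-fold and numbers in brackets are genes tested. The medians of the secondary and tertiary granule lists sit just above 0, those of the activation and immediate early lists just below it, and the 3 dendritic cell genes, carried by a few cells, have a median of -1.69.

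The antigen-presentation genes had the lowest list median, -1.69 over Cd74, H2-Aa and H2-Ab1, all past the fold. Their counts were held by few cells, as given above for Cd74. Without the top cell of each library, the ratio of Cd74 was 0.21, that of H2-Aa 0.27 and that of H2-Ab1 -0.08. Without the 4 members with over 50 counts of Cd74, 11 genes were higher and 20 lower past the fold in agonist members.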

How the data were processed

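Live CD45+ lung cells were profiled on the 10x Genomics Chromium platform. The submitters' processing notes name Partek and mm10; the aligner is not given in the sources used here. For 20882 gene columns, the authors deposited estimated counts per cell, which look unscaled. The file headers also name columns of the authors for total count, expressed genes, and mitochondrial and ribosomal percent. Blank lines were dropped, and lines holding 2 joined records were split.

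The members, gene lists and comparisons were chosen with earlier results of these data known. Expected counts were summed over cells per treatment and class and rounded. Agonist over isotype ratios were scaled by TMM (edgeR 4.0.16, R 4.3.3) or, as an alternative, DESeq2 1.42.0 size factors; neither tool's test was run. Class comparisons used plain CPM. Ratios have exact Clopper-Pearson and levels exact Poisson intervals at 95%; they cover counting error only, and a sum of 0 allows 3 counts. Shares have exact binomial intervals. Doublets that Scrublet marked (scanpy 1.11.5; score over 0.25 at an expected rate of 0.1) were kept. Genes named between treatments were the 12 per direction with the interval farthest from 0, and against Retnlg-high neutrophils the 15 per direction in both treatments. These had at least 100 counts, under 10% of 31-base words in another gene (GENCODE M21), under 25% of a library's count in 1 cell, and were protein-coding without ribosomal, mitochondrial, histone or unnamed genes; 214 of 398 genes qualified. Other genes named are examples from the lists. The ratio script was tested on simulated sums. Some list genes are not reported here.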

Additional observations from a re-analysis of the deposited data

How the results depend on the processing

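Of the results that answer a comparison, 337 values stayed within their limits under an alternative and 15 moved; of the values of single genes, 455 stayed and 96 moved. The count of genes higher past 1.5-fold in agonist members, 13, was 72 with at least 50 counts and 3593 with at least 1 count, 21 without Scrublet calls and 22 without the 2 dividing members, and ranged from 12 to 31 without each table in turn. The count of lower genes, 29, was 87 with at least 50 counts and 3419 with at least 1 count, 18 without members that had 2 or more counts of another lineage, 9 without the top cell of each gene, and 24 to 38 without each table. The share of members with a count of Cebpe, 3.45% in agonist and 10.7% in isotype after thinning each cell to 1000 counts, was 20.7% and 39.3% without thinning, and 0% to 4.55% and 8.00% to 22.2% when each table was left out. The share with Mki67 or Top2a in agonist, 6.90%, was 0% when thinned to 500 counts. It was 0% by construction without the 2 dividing members, the only agonist members with a count of either gene. The median of the immature or suppressive myeloid list, -0.04, ranged from -0.52 to 0.26 without each table. The 2 leave-outs of single kinds of cells (dividing members, members with over 50 counts of Cd74) were chosen after seeing the data. No paired analysis was possible because tables of a treatment share cells and each treatment is 1 sample, so no result comes from a test. The thinned shares also change with the random draw, which was made anew for each alternative. Apart from this, the cause of these changes was not tested beyond the number of genes or cells that each alternative leaves. Depth limits the members to 170377 agonist and 170625 isotype counts, so genes under 100 counts were not compared.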
